A study of Homo sapiens with 2 samples.

Results

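Olfactory receptor genes outside chromosome 11 are the protein-coding members of the odorant receptor family on chromosomes 1 to 10 and 12 to 22. They were found by gene symbol, the letters OR followed by a family number, a subfamily letter and a member number, in a RefSeq gene table of GRCh38.p14. The rule gave 218 genes among 19970 protein-coding genes on chromosomes 1 to 22 and X. Another 171 olfactory receptor genes lie on chromosome 11 and serve only as a comparison. Of the 218 genes, 43 lie at 1q44, 16 at 6p22, 23 at 9q, 24 at 14q11 and 11 at 17p13, and 101 lie elsewhere.

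Open chromatin was measured by ATAC-seq, in which a transposase cuts accessible DNA and inserts sequencing adapters. Both libraries came from WIBR3, a human embryonic stem cell line: 1 library from hTBLCs, cells that the series' title links to totipotency reached by repressing the spliceosome, and 1 from primed cells, as such lines are usually grown. The labels give no genotype, agent, dose or time for either library, and both samples are typed there as embryonic stem cells of the same line. With 1 library per state, no difference has a replicate check and none was tested. Intervals below are 95% intervals that cover counting error only, since reads without molecular identifiers are not independent molecules.

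Olfactory receptors are G protein-coupled receptors with an intronless coding sequence, and most of their genes sit in tandem arrays. A mature olfactory sensory neuron expresses 1 allele of 1 receptor gene and keeps the rest of the family in silent, heterochromatic arrays, as worked out mainly in mouse. The receptors couple to GNAL, the olfactory G protein subunit, which activates the adenylyl cyclase ADCY3 and through it the cyclic nucleotide-gated channel that contains CNGA2.

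The deposited lists held 299673 hTBLC and 295753 primed peaks. Merging overlapping peaks left 250859 hTBLC and 242009 primed regions, with median summit pileups of 16 and 17. The pileup, the number of fragments or reads stacked on a summit, was worked out from each peak's fold and −log10 p as deposited. The lists end at different thresholds, with a lowest −log10 p of 2.83 in hTBLC and 2.0 in primed, and 327 hTBLC and 252 primed ranks have no line. A missing region therefore means one that was not called or not listed, not closed chromatin. The stem cell genes POU5F1, SOX2, NANOG and LIN28B all had a summit within 10 kb in both libraries.

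Olfactory receptor genes without a peak nearby were almost as many as those with one, whereas few other genes lacked one. A summit lay inside the gene or within 10 kb of it in hTBLC alone for 21 of the 218 genes (9.63%, Wilson interval 6.39 to 14.3%), against 1.08% of all protein-coding genes. Primed alone held 12 (5.50%, 3.18 to 9.37%), against 1.06% of all protein-coding genes. Both libraries had a summit at 78 genes (35.8%), against 93.6% of all protein-coding genes. Neither had one at 107 (49.1%, 42.5 to 55.7%), against 4.28% of all protein-coding genes. Among genes with any summit, both libraries had one at 70.3% of the olfactory receptor genes and at 97.8% of all protein-coding genes. The median gene had 0 hTBLC and 0 primed peaks within 10 kb, against 7 hTBLC and 8 primed peaks over all protein-coding genes. These windows grow with gene length. Joined, they cover 5.17 Mb for the 218 genes and 1483 Mb for all protein-coding genes. Counts and classes per gene therefore also depend on gene length, and how much of the contrast this makes was not tested. Neighbouring genes can also share a region: 20 hTBLC and 21 primed regions fell in the windows of more than 1 member. The Wilson intervals for shares of genes take genes as independent and can therefore be too narrow. A single region lay near 20 of the 21 genes with hTBLC peaks alone and near 9 of the 12 with primed peaks alone. The olfactory receptor genes on chromosome 11 fell into 32 hTBLC alone, 9 primed alone, 68 both and 62 neither.

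**Figure D1:**
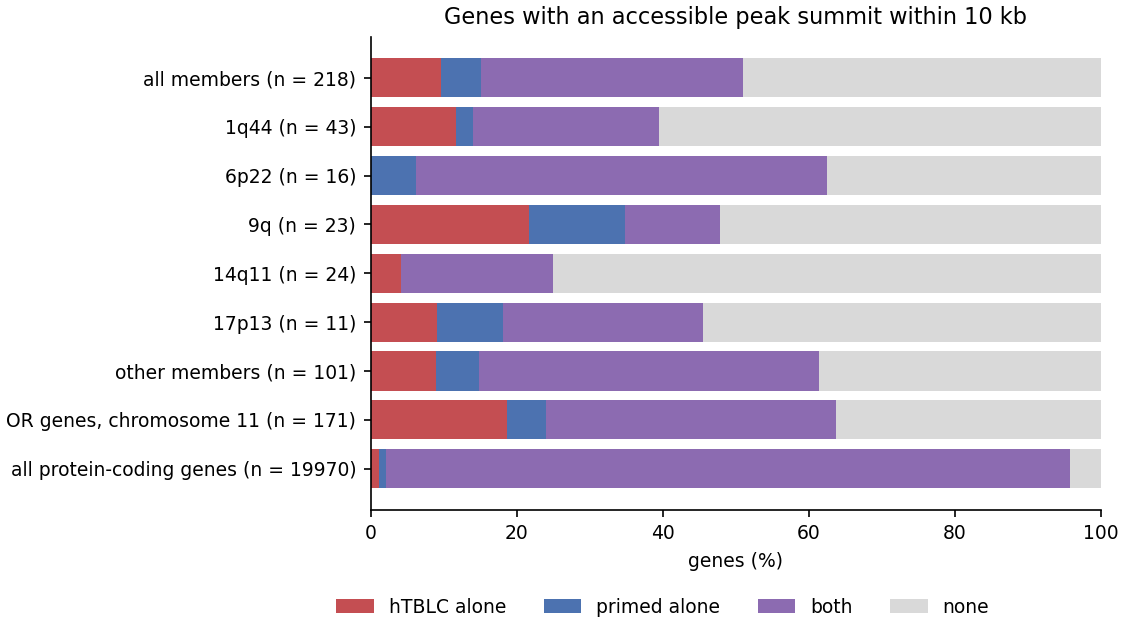
Share of genes, in percent, with a peak summit within 10 kb in hTBLC alone, in primed alone, in both libraries or in neither, for each cluster and for the comparison sets. Neither library had a summit at 107 of the 218 genes outside chromosome 11, and at 18 of the 24 genes at 14q11.

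The 5 clusters differed in how many genes lay near a peak. At 1q44, hTBLC alone had a summit at 5 genes, primed alone at 1, both at 11 and neither at 26. At 6p22, no gene was near hTBLC peaks alone, 1 was near primed peaks alone, 9 were near both and 6 near neither. At 9q the counts were 5 for hTBLC alone, 3 for primed alone, 3 for both and 12 for neither. At 14q11 hTBLC alone had 1 gene, primed alone had 0, both had 5 and neither had 18. At 17p13 hTBLC alone and primed alone had 1 gene each, both had 3 and neither had 6. Outside these clusters, 9 genes were near hTBLC peaks alone, 6 near primed peaks alone, 47 near both and 39 near neither. The larger shares with both were thus at 6p22 and among the genes outside the 5 clusters. Those genes are not all isolated, and some lie in arrays of their own, such as the OR5H genes on chromosome 3.

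Genes without a nearby summit came in runs. Windows of neighbouring members can overlap, and 107 of the 218 genes had no summit, so some runs arise in any case. How long they would then be was not worked out. The longest run, from OR11H2 to OR11H6 at 14q11, held 15 neighbouring members over 512 kb. At 1q44, 14 neighbours from OR2T33 to OR2T10 spanned 328 kb, and 8 from OR2L8 to OR2M3 spanned 264 kb. The latter span still holds an hTBLC region near OR2L13, more than 10 kb from each of the 8 genes. At 17p13, 5 neighbours from OR1D5 to OR1A1 spanned 156 kb, among them OR1D2, a receptor for floral aldehydes also studied in sperm, and OR1A1, a broadly tuned receptor. Subfamilies differed in their counts. A summit of either library lay near 9 of 9 OR2A genes and 6 of 11 OR6C genes, but near 2 of 15 OR2T, 2 of 8 OR4F, 0 of 7 OR4K and 0 of 5 OR10H genes. By family, 19 of 25 OR6 and 11 of 14 OR5 genes had one, against 30 of 63 OR2, 11 of 25 OR1 and 5 of 26 OR4 genes. Many of these receptors have close copies, and whether reads from copies were dropped or misplaced was not tested.

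Regions were sparse around these genes. The joined 10 kb windows cover 5.17 Mb and held 164 hTBLC and 151 primed regions. That is 31.7 hTBLC regions per Mb (exact Poisson interval 27.0 to 37.0) and 29.2 primed regions per Mb (24.7 to 34.2), or 38.3% and 36.5% of the density over the genome in the same library. The windows around chromosome 11 olfactory receptor genes held 53.2 hTBLC and 42.4 primed regions per Mb. Among the clusters, the hTBLC density was 37.9 per Mb at 6p22, 27.8 at 1q44, 23.3 at 9q, 17 at 14q11 and 10.1 at 17p13. The primed density was 46.6 per Mb at 6p22, 21.9 at 1q44, 16.9 at 9q, 13.6 at 14q11 and 10.1 at 17p13. Both libraries gave the same order, and within every cluster the intervals of the 2 libraries overlapped.

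**Figure D2:**
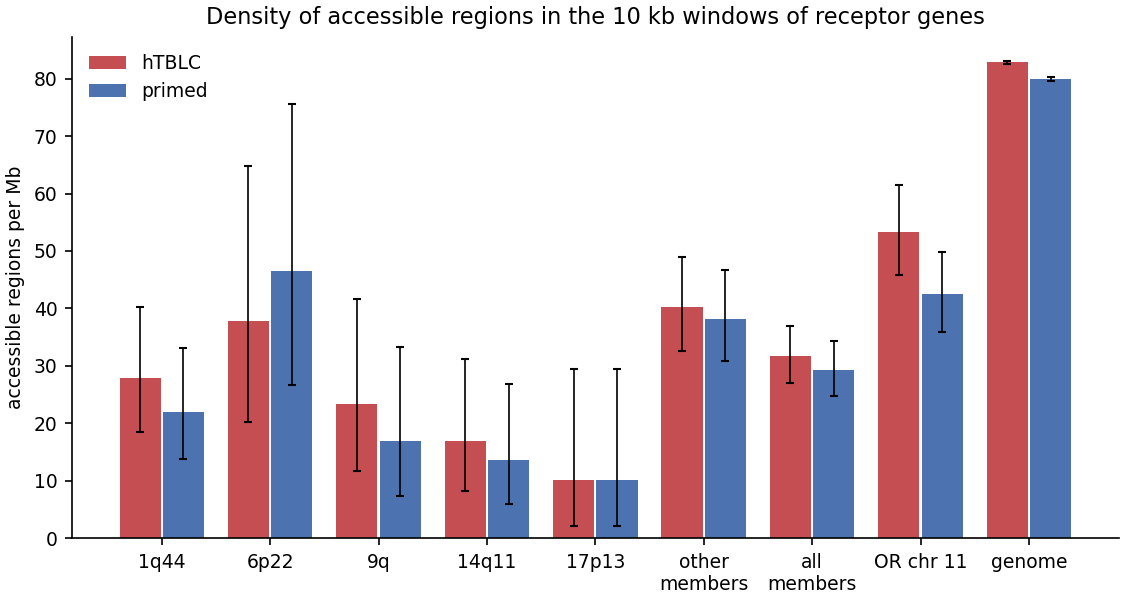
Regions per Mb of joined windows for hTBLC and primed, with exact Poisson 95% intervals, by cluster and for the comparison sets. The 6p22 windows were the densest of the 5 clusters, with 37.9 hTBLC and 46.6 primed regions per Mb, and the 17p13 windows the sparsest, with 10.1 in each library.

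The balance of regions found in 1 library was close to that of the genome. Around the 218 genes, 69 hTBLC regions and 58 primed regions did not touch a region of the other library, so that 54.3% of them were hTBLC-only (Wilson interval 45.7 to 62.7%). This share was 52.1% over the genome, 47.9% in the windows of all protein-coding genes and 62.7% around chromosome 11 olfactory receptor genes. By cluster, hTBLC-only and primed-only regions numbered 14 and 9 at 1q44, 4 and 5 at 6p22, 6 and 3 at 9q, 3 and 1 at 14q11 and 2 and 2 at 17p13. With so few regions, the interval of the hTBLC-only share included 50% in each of these clusters. Over the whole span from the first to the last member, which takes in regions far from any receptor gene, the share at 14q11 was 69.2% of 120 library-only regions (60.4 to 76.7%), an interval above 50%, and in the other 4 clusters the interval still included 50%. Shared regions made up 57.9% of the hTBLC and 61.6% of the primed regions, against 60.8% and 62.7% over the genome. They were the stronger ones, as over the genome: their median pileup was 21 in hTBLC and 25 in primed, and library-only regions had medians of 10 in hTBLC and 11 in primed. Over the genome, shared regions had medians of 24 in each library and library-only regions 12 in each. Of regions with a deposited fold of at least 10, 21 of 23 hTBLC regions and 26 of 27 primed regions were shared. This last count was not made over the genome.

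Most regions lay outside the receptor genes. Inside a member were 54 of 164 hTBLC and 42 of 151 primed regions. Another protein-coding gene lay within 2 kb of 10 hTBLC and 14 primed regions, and 20 hTBLC and 21 primed regions fell in the windows of more than 1 member. These genes were NLRP3, an inflammasome sensor, UBD, a ubiquitin-like modifier, ENPP3, an ectonucleotidase, NDUFA10, a subunit of mitochondrial complex I, and GCSAML, CLEC5A, TMEM8B and MNDA. Just inside the limit, at 9 to 10 kb from a member, 16 hTBLC and 15 primed summits were counted, and just outside it, at 10 to 11 kb, 11 hTBLC and 12 primed summits.

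Starts of the receptor genes were rarely covered. A start with its strand was known for 176 of the 218 genes, and for the others either end was used. A summit lay within 1 kb of the start in hTBLC alone at 10 genes, against 2.5% of all protein-coding genes, and in primed alone at 5 genes, against 3.12% of all protein-coding genes. As a share of the 218 genes these were 4.59% for hTBLC alone and 2.29% for primed alone. Both libraries had one at 12 genes and neither at 191. Together 27 genes (12.4%) had a summit at the start, against 82.6% of all protein-coding genes. In the 1 kb upstream of the known starts there were 0.0341 hTBLC and 0.0341 primed summits per gene, and in the 1 kb downstream 0.0568 hTBLC and 0.0511 primed summits per gene. Protein-coding genes other than olfactory receptors had 0.998 hTBLC and 1.05 primed summits per gene in the 1 kb upstream.

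**Figure D3:**
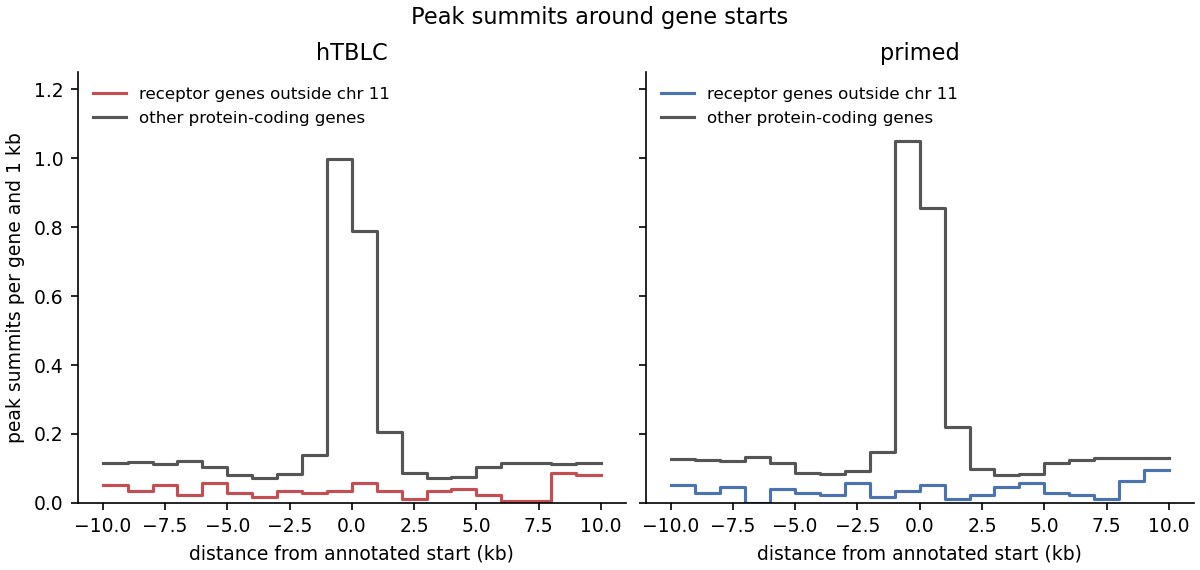
Summits per gene against distance from the gene start in kb, in steps of 1 kb, for hTBLC and primed, at olfactory receptor genes outside chromosome 11 and at other protein-coding genes. The other genes reached 0.998 hTBLC and 1.05 primed summits per gene in the 1 kb upstream, and the receptor genes stayed at 0.0341 in each library there.

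The sequence before the starts was unlike that of most genes. RefSeq promoters were found for those 176 genes, 185 promoters in all, and their 250 upstream bases were read. The median GC content was 38% and the median number of CpG dinucleotides 1, against 62% and 16 over 22139 promoters of all protein-coding genes. The 138 promoters of chromosome 11 olfactory receptor genes were alike, with medians of 36.4% and 1. At least 10 CpG were found in 4 of 185 promoters (2.16%), against 65.5% of all. These 4 belong to OR3A2, OR1F1 with a pair of starts, and OR2L13, and all of these genes had a summit within 1 kb of the start in at least 1 library. The 3 sequences below, from GRCh38.p14 and 5′ to 3′ in the direction of the gene, show 1 start of each with each CG in capitals. OR2L13 is chr1:247936927-247937176 on the plus strand, OR3A2 is chr17:3386309-3386558 on the minus strand and OR1F1 is chr16:3188872-3189121 on the plus strand.
OR2L13: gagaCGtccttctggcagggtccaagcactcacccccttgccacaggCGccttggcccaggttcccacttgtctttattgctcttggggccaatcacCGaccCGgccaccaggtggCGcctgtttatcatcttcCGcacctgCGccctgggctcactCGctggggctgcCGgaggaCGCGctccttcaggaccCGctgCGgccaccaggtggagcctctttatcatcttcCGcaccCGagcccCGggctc
OR3A2: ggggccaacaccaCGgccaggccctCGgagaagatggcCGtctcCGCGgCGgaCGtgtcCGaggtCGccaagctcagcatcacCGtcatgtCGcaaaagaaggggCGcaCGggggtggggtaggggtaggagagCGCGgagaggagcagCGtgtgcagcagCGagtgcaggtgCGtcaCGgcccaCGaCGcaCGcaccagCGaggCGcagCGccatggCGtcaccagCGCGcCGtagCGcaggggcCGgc
OR1F1: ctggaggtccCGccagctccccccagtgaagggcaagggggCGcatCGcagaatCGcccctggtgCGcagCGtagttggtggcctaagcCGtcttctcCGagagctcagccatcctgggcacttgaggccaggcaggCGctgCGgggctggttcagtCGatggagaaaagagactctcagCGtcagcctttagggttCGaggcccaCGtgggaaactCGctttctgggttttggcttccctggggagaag
The OR2L13 stretch lies wholly inside a region of both libraries. Of the OR3A2 stretch, 0% lies in an hTBLC region and 52.4% in primed regions. Of the OR1F1 stretch, 98.0% lies in an hTBLC region and 0% in a primed region, although a primed region begins just downstream.

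The OR2L13 start held the highest pileup found at any start of a member. The region at chr1:247936866-247937751 had a pileup of 107 in hTBLC (exact Poisson interval 87.7 to 129), and that at chr1:247936838-247937790 had 158 in primed (134 to 185), with summits 46 and 52 bp upstream of the start. Its deposited fold was 16.6 in hTBLC and 16.6 in primed. Scaled for relative depth, the hTBLC to primed ratio was 0.618 (exact binomial interval 0.479 to 0.795). The stretch printed above holds CCAC and AGGTGG with any 1 base between them, a core form of the motif of the insulator protein CTCF, in 2 copies. That search was added after this sequence was seen, and the letters occur in 1 of 185 receptor promoters (0.541%) and in 23 of all promoters (0.104%), on either strand. Downstream of this open start, 8 neighbouring members from OR2L8 to OR2M3 had no summit within 10 kb. Their span is not free of regions: an hTBLC-only region of pileup 10 at chr1:248103281-248103525 lies in it, 2233 bp from OR2L13.

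OR3A2 and OR1R1 at 17p13 overlap, and both had a summit within 1 kb of the start in primed alone. The primed regions were chr17:3385972-3386387, with a pileup of 9 (4.12 to 17.1), and chr17:3386507-3386757, with a pileup of 16 (9.15 to 26). No hTBLC region was listed at either place. OR1F1 on chromosome 16 had an hTBLC region over a start and an overlapping primed region that begins just downstream of it, with a pileup of 23 (14.6 to 34.5) in hTBLC and 50 (37.1 to 65.9) in primed and a scaled ratio of 0.420 (0.245 to 0.701).

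Short motifs were searched in the same 250 bases on both strands, as a description of letters and not of binding. TATAAA, the TATA box, occurred in 31.4% of the receptor promoters and 9.0% of all promoters. TAATTA, a homeodomain core of the kind bound by LHX2 and EMX2, occurred in 18.4% and 3.16%. TCCC and GGGA with any 2 bases between them, a form of the EBF motif, occurred in 1.08% and 1.22%, and ATGCAAAT, the octamer of POU factors such as POU5F1, in 0.541% and 1.58%. In the 138 promoters of chromosome 11 olfactory receptor genes, TATAAA occurred in 34.1% and TAATTA in 23.2%. The EBF form occurred there in 1.45% and the octamer in 2.90%. TATAAA and TAATTA hold only A and T, and the receptor promoters are poor in GC.

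The OR2A genes were the largest subfamily in which every gene, 9 of 9, had a nearby summit; smaller ones such as OR6K, with 3 of 3, had this too. Of these, 8 lie on chromosome 7 and OR2A4 lies on chromosome 6. The 3 stretches below show OR2A starts that a region overlaps, again the 250 bases upstream in GRCh38.p14 with CG in capitals. OR2A1 is chr7:144312169-144312418, OR2A12 is chr7:144086028-144086277 and OR2A25 is chr7:144070063-144070312, all on the plus strand.
OR2A1: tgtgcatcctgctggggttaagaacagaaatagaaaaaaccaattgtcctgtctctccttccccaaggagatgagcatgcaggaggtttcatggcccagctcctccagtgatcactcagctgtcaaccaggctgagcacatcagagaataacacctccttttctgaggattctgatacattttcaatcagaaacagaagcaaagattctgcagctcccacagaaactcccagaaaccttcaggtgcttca
OR2A12: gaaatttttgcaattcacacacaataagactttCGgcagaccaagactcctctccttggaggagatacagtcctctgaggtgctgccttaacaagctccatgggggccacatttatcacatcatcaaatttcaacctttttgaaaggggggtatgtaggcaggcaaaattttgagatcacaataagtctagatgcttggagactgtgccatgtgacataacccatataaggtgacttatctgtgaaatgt
OR2A25: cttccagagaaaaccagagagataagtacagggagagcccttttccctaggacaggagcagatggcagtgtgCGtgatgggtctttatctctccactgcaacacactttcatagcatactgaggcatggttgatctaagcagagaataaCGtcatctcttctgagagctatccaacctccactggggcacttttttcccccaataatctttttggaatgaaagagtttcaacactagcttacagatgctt
Of the OR2A1 stretch, 87.2% lies in an hTBLC region and 44.8% in a primed region. Regions of hTBLC cover 54.0% of the OR2A12 stretch and 59.2% of the OR2A25 stretch, and primed regions cover 0% of both. The OR2A1 region had a pileup of 23 (14.6 to 34.5) in hTBLC and 15 (8.40 to 24.7) in primed. At OR2A12 the hTBLC pileup was 12 (6.20 to 21.0) and at OR2A25 it was 10 (4.80 to 18.4), both near the lowest pileup of 7 in the hTBLC list. These 3 stretches hold 0, 1 and 2 CG, unlike the start of OR2L13.

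Regions at other OR2A genes were stronger. OR2A14 held the region chr7:144127745-144128141 in hTBLC, with a pileup of 95 (76.9 to 116), and chr7:144127738-144128117 in primed, with a pileup of 119 (98.6 to 142), inside the gene. OR2A4 had a pileup of 104 (85.0 to 126) in hTBLC and 102 (83.2 to 124) in primed at a region 4615 bp from the gene in hTBLC and 4629 bp in primed, which is also near ENPP3. OR2A2 differed, with a primed-only region at chr7:144110342-144110622, 897 bp inside its start, of pileup 34 (23.5 to 47.5) and fold 12.5. OR2A5 showed both directions: an hTBLC-only region 69 bp outside the gene had a pileup of 22 (13.8 to 33.3), and a shared region about 5 kb away had 9 (4.12 to 17.1) in hTBLC and 28 (18.6 to 40.5) in primed. The subfamily was thus open near its genes in both states, with single sites that were listed in 1 state.

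The genes near peaks of 1 library alone rested on weak regions. For hTBLC alone, the 21 genes rested on 20 distinct regions with a strongest pileup per gene between 7 and 31 (median 12), and 4 genes had a region of −log10 q of at least 10. For primed alone, the 12 genes rested on 15 regions with strongest pileups between 6 and 16 (median 10), and 0 genes reached that q. The lowest pileup in the whole lists was 7 in hTBLC and 6 in primed. None of these genes had a region that touched one of the other library. With the 50000 strongest peaks of each list, hTBLC alone had 7 genes and primed alone 10, the opposite order.

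**Figure D4:**
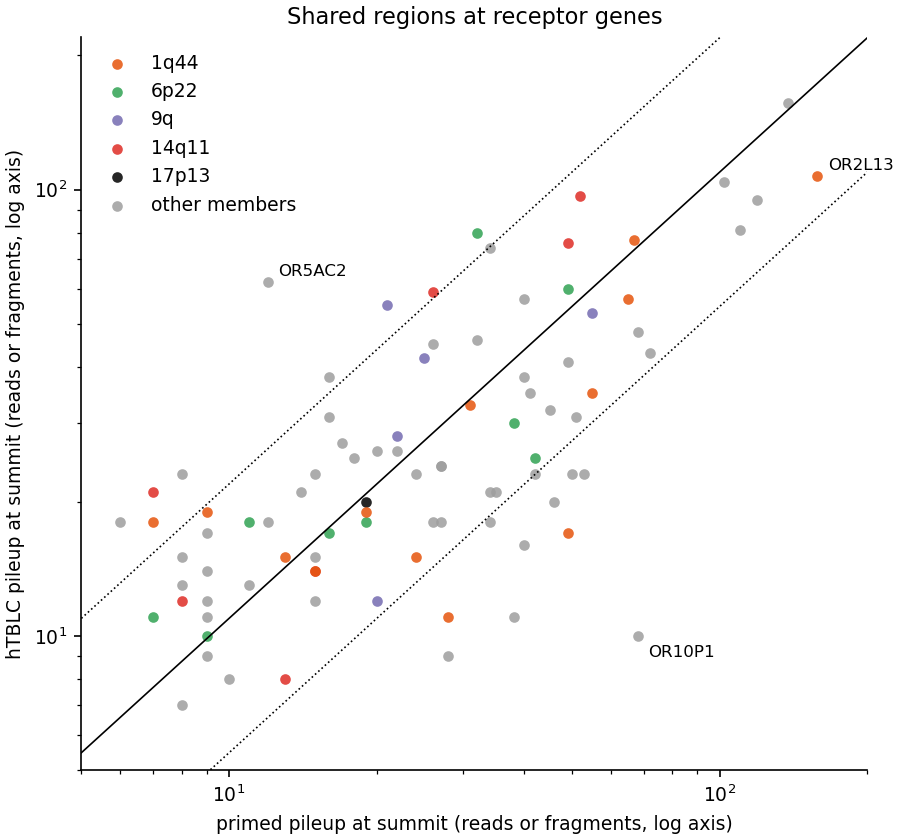
Summit pileup in hTBLC against that in primed, on log axes, at the 90 shared pairs of regions, coloured by cluster. The solid line marks equal pileups after scaling for relative depth, and the dotted lines mark 2-fold to either side. The labelled OR5AC2 pair, with 62 in hTBLC and 12 in primed, has the highest scaled ratio. The labelled OR10P1 pair, with 10 in hTBLC and 68 in primed, has the lowest.

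OR2G3 at 1q44 had the strongest region among the genes near hTBLC peaks alone, with a pileup of 31 (21.1 to 44) and a fold of 10.4, lying 5814 bp upstream of its start. OR1L8 and OR1N2 at 9q shared 1 hTBLC region of pileup 21 (13 to 32.1) that lies inside OR1L8 and also inside OR1J2 as annotated. OR7D2 on chromosome 19 had a pileup of 18 (10.7 to 28.4). The remaining genes chosen by highest fold, OR2F2, OR10K1, OR2T11, OR5AU1, OR2G2 and OR6Y1, had hTBLC pileups of 13 to 16. Among them OR2T11 and OR2G2 lie at 1q44 and OR5AU1 at 14q11, where no other gene was near hTBLC peaks alone.

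OR1R1 had the strongest region among the genes near primed peaks alone, described with OR3A2 above. OR5H14 on chromosome 3 and OR6K3 on chromosome 1 had primed pileups of 14 (7.65 to 23.5) each, and OR14L1 at 1q44 had 12 (6.20 to 21.0), 528 bp upstream of its start. OR13F1, OR4F6 and OR6C74 had 10 or 11, and OR2W1, OR4F5 and OR6C3 had 7 each. OR2W1, a broadly tuned receptor, was the only gene at 6p22 near peaks of 1 library alone.

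At gene starts, the hTBLC-alone summits belonged to OR6N1, OR11L1, OR2A5, OR9A4, OR2A25, OR5H2, OR1E1, OR2A12, OR6P1 and OR6K6. OR2A5, OR5H2 and OR1E1 have no known start, so their summits lie near a gene end that may not be the start. The strongest were at OR11L1, at 1q44, with a pileup of 22 (13.8 to 33.3) 755 bp upstream of the start, and at an end of OR2A5, with the region of the same pileup described above. At OR6N1, OR9A4 and OR6K6 the start region had a pileup of 7 (2.81 to 14.4), the lowest in the hTBLC list. The primed-alone summits belonged to OR2A2, OR1R1, OR3A2, OR6B3 and OR14L1, with OR2A2 the strongest at 34 and OR6B3 at 9 (4.12 to 17.1).

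Few library-only regions were strong, here as over the genome. A −log10 q of at least 10 was reached by 10 of the 69 hTBLC-only and 5 of the 58 primed-only regions. Over the genome it was reached by 11999 of 98291 hTBLC-only and 13428 of 90203 primed-only regions. The highest hTBLC-only pileup was 70 (54.6 to 88.4), with a fold of 22.2, at chr12:48553649-48554240, 6025 bp upstream of OR5BS1. The only primed region in the window of OR5BS1 had a pileup of 9 (4.12 to 17.1), 2995 bp upstream of the start. OR2B11 at 1q44 had an hTBLC-only region of pileup 39 (27.7 to 53.3) inside the gene. OR1J2 at 9q had hTBLC-only regions of pileup 28 (18.6 to 40.5), 21 (13 to 32.1) and 18 (10.7 to 28.4). That of pileup 21 is the same region described above for OR1L8 and OR1N2. The highest primed-only pileup was 45 (32.8 to 60.2), 3924 bp upstream of OR1F1, where the fold was 4.97. Others were at OR2A2, described above, OR13J1 and OR2W3, with 22 (13.8 to 33.3) each, and OR11A1 at 6p22, with 21 (13 to 32.1).

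The member with most regions was named in each cluster. OR2B11, at 1q44 and next to NLRP3, had a shared region near NLRP3 with a pileup of 77 (60.8 to 96.2) in hTBLC and 67 (51.9 to 85.1) in primed and a ratio of 1.05 (0.747 to 1.48). OR2H2 at 6p22 had 30 (20.2 to 42.8) in hTBLC and 38 (26.9 to 52.2) in primed at its strongest region. OR1J2 at 9q had 42 (30.3 to 56.8) in hTBLC and 25 (16.2 to 36.9) in primed. OR6J1 at 14q11 had 76 (59.9 to 95.1) in hTBLC and 49 (36.3 to 64.8) in primed. OR3A2 at 17p13 had no pileup over 9 in hTBLC or 16 in primed.

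At shared regions the median ratio was close to that over the genome. Ratios of the hTBLC to the primed pileup, scaled by a relative depth of 1.09, were taken at 90 pairs of overlapping regions. The pooled ratio was 0.900 (0.855 to 0.948), and the median log2 ratio was −0.12, with quartiles of −0.65 and 0.50. Over all 147705 shared pairs of the genome the pooled ratio was 0.940 (0.939 to 0.941), also below 1. Their median log2 ratio was −0.13, with quartiles of −0.63 and 0.36. Past 2-fold, 9 of the 90 pairs (10%) were higher in hTBLC, against 7.64% of all pairs, and 10 (11.1%) were lower, against 13.2% of all pairs. The interval lay above 1 at 10 pairs (11.1%), against 11.3% of all pairs, and below 1 at 20 (22.2%), against 18% of all pairs.

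**Figure D5:**
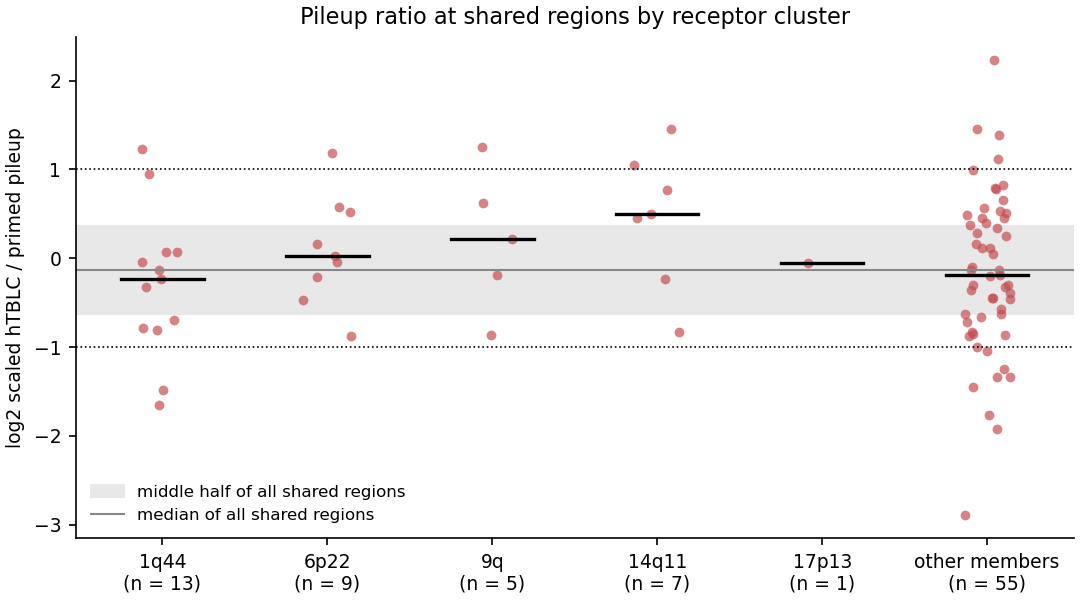
Scaled hTBLC to primed pileup ratio on a log2 axis at the 90 shared pairs, by cluster, with a bar at the median of each. The grey band and line give the quartiles and median of all shared pairs of the genome, and dotted lines mark 2-fold. The median log2 ratio was highest at 14q11, at 0.50, and lowest at 1q44, at −0.23.

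The pooled ratio was highest at 14q11 and lowest at 1q44. At 14q11 the pooled ratio was 1.54 (1.27 to 1.88) over 7 pairs, and at 1q44 it was 0.739 (0.650 to 0.840) over 13 pairs. Without the regions of OR6S1 and OR6J1, picked after the data were seen, 14q11 had 0.863 (0.524 to 1.42) over 3 pairs. Those 3 pairs hold summed pileups of 34 in hTBLC and 36 in primed, of 287 and 170 over all 7. The pairs left out have the highest ratios at 14q11, so the pooled ratio falls in any case and no conclusion is drawn. Without OR2L13, 1q44 had 0.789 (0.679 to 0.917). The ratio was 1.10 (0.919 to 1.32) at 6p22, 1.21 (0.972 to 1.52) at 9q and 0.840 (0.786 to 0.897) over 55 pairs elsewhere. The single pair at 17p13 had 0.961 (0.487 to 1.90).

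The highest ratio was at OR5AC2 on chromosome 3, with a pileup of 62 (47.5 to 79.5) in hTBLC and 12 (6.20 to 21.0) in primed, a ratio of 4.72 (2.52 to 9.62). OR6J1 had 21 in hTBLC and 7 in primed, a ratio of 2.74 (1.12 to 7.63), and OR2F1 on chromosome 7 had 18 in hTBLC and 6 in primed, a ratio of 2.74 (1.04 to 8.43). OR6V1 on chromosome 7 had 23 in hTBLC and 8 in primed, a ratio of 2.63 (1.13 to 6.79). OR2K2 at 9q had 55 in hTBLC and 21 in primed, a ratio of 2.39 (1.42 to 4.16). OR2I1 at 6p22 had 80 in hTBLC and 32 in primed, a ratio of 2.28 (1.5 to 3.56), at a region near UBD.

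The lowest ratio was at OR10P1 on chromosome 12, with a pileup of 10 (4.80 to 18.4) in hTBLC and 68 (52.8 to 86.2) in primed, a ratio of 0.134 (0.0616 to 0.262). OR5H6 on chromosome 3 had 11 in hTBLC and 38 in primed, a ratio of 0.264 (0.122 to 0.528). OR2A5 had the pair given above, a ratio of 0.294 (0.122 to 0.640). At 1q44, OR14A16 had 17 in hTBLC and 49 in primed, a ratio of 0.317 (0.171 to 0.560), and OR2AJ1 had 11 in hTBLC and 28 in primed, a ratio of 0.359 (0.161 to 0.743). OR5AC2 and OR5H6 lie in the same array on chromosome 3, with OR5H1, OR5H14 and OR5H15 between them.

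Genes of the olfactory pathway lay near peaks about as often as protein-coding genes in general, of which 93.6% had a summit within 10 kb in both libraries and 77% had one in both within 1 kb of the start. All 21 genes of olfactory signalling, from GNAL and ADCY3 to the marker OMP and the receptor chaperones RTP1 and RTP2, had a summit within 10 kb in both libraries. So did all 22 genes of receptor choice and silencing, among them LHX2, LDB1 and EBF1, which act at receptor enhancers in mouse, and SETDB1, EHMT2 and CBX5, which write or read repressive histone marks. Within 1 kb of the start, 16 signalling genes had a summit in both libraries, CNGB1 had one in primed alone, and CNGA4, OMP, RTP2 and CNGA2 had none. Of the choice and silencing genes, 21 had a start summit in both and EBF1 had none. A median of 10 hTBLC and 11 primed peaks lay within 10 kb of the signalling genes, and 8.5 hTBLC and 10.5 primed peaks near the choice and silencing genes.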

How the data were processed

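ATAC-seq peak lists of 1 hTBLC and 1 primed WIBR3 library were analysed. The submitters' processing notes name Bowtie2, Picard, MACS2 and hg38, with no version or role. The sources used here do not give duplicate handling, transposase offset or calling threshold. Peaks came as 1 list per library. The authors deposited for each peak a fold ratio over local background, a −log10 p-value and q-value, a score that was not used, and a summit position. Fold and −log10 p gave a whole pileup for 99.998% of hTBLC and 99.999% of primed peaks (tolerance 0.001). The most frequent lowest background, 1.96 for hTBLC and 1.79 for primed, gave the relative depth. Total reads were not analysed here.

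Overlapping peaks were merged per library, and regions overlapping by at least 1 bp were shared. Genes, starts and upstream sequences came from RefSeq GRCh38.p14, whose primary coordinates equal hg38. Summits were counted within 10 kb of genes and 1 kb of starts. Ratios used overlapping pairs of regions. Named genes were the 10 per library of highest fold near peaks of that library alone, the 5 highest and 5 lowest ratios, start summits of 1 library alone, and the member with most regions per cluster. Other genes and the strongest single regions were chosen after their values were seen. Members and lists were chosen with earlier results of these data known. No test was made. Steps were tested on simulated data, where 100% of 20000 pileups and 100% of 400 genes were recovered. Python 3.11.15, numpy 2.4.6, pandas 2.3.3, scipy 1.17.1 and matplotlib 3.10.9 were used.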

Additional observations from a re-analysis of the deposited data

How the results depend on the processing

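No paired analysis was possible because each state has 1 library and nothing was tested. The precision is limited by low pileups and by 1 library per state. Of 122 values under alternative settings, 92 stayed within 1.5 times the reported count or within its counting interval and 30 moved. Of the genes near hTBLC peaks alone, the 50000 strongest peaks per list left 7, against 10 near primed peaks alone, and a distance of 2 kb left 13, against 8. At −log10 q of at least 5 there were 17 genes with hTBLC alone (7.80%) and 16 with primed alone (7.34%). Over all protein-coding genes these shares were 0.906% and 1.89%. The larger hTBLC count among the receptor genes thus depends on these settings. Genes near primed peaks alone numbered 5 at −log10 q of at least 10 and 5 at 50 kb. Genes near both numbered 41 at that q, 18 with the strongest peaks, 41 at 2 kb and 151 at 50 kb. Genes near neither numbered 183 with the strongest peaks and 40 at 50 kb. The hTBLC-only share was 42.1% with the strongest peaks. By cluster it was 0% at 1q44 and 100% at 9q and 14q11 with the strongest peaks, 0% at 6p22 and 100% at 9q at 2 kb, 100% at 14q11 at −log10 q of at least 10, and 0% at 17p13 at −log10 q of at least 5. Clusters with no library-only region left under an alternative have no value there. The density was 56.8% (hTBLC) and 54.8% (primed) of the genome's at 50 kb, and 43.9% in primed without peaks at other genes. The unscaled pooled ratio was 0.986. Pairs higher past 2-fold numbered 5 with 1 to 1 overlap of at least 50% and 5 at −log10 q of at least 5, where 5 were lower. Starts with hTBLC alone numbered 4 at that q. Starts with primed alone numbered 2 at 500 bp and 8 at 2500 bp, and with both 7 and 22. A common −log10 p floor of 2.83 left 21 genes with hTBLC alone and 10 with primed alone. The values of 14q11 and 1q44 without named genes were chosen after seeing the data, and that of 14q11 changed side, at 0.863. The cause of these changes was not tested.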

Other observations

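Other chemoreceptor genes, the trace amine, vomeronasal and taste receptors, were counted in the same way. Of 37 genes, 1 had a summit within 10 kb in hTBLC alone, the bitter receptor TAS2R42, and 2 in primed alone, the bitter receptors TAS2R46 and TAS2R30. Both libraries had one at 27 and neither at 7. At the start, hTBLC alone had a summit at 3 genes, primed alone at 1, both at 5 and neither at 28. The median gene of this list had 2 hTBLC and 2 primed peaks within 10 kb, more than the 0 of the olfactory receptor genes in each library. At −log10 q of at least 10, 14 of the 218 olfactory receptor genes outside chromosome 11 (6.42%) were near hTBLC peaks alone. Over all protein-coding genes this number was 261 (1.31%). Near primed peaks alone were 5 of the 218 genes (2.29%), close to the share over all protein-coding genes, 494 (2.47%).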
